A study of Mus musculus with 16 samples.

Results

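The translation initiation factor genes were followed by long-read RNA sequencing in a pair of brain regions, cortex and striatum, of R6/2 mice and their non-transgenic (NT) controls. Members were taken by symbol: annotated genes whose name begins with Eif1 to Eif6, without pseudogenes and without the X- and Y-linked pair Eif2s3x and Eif2s3y, and with at least 1 read in the 16 samples. This gave 51 genes of 24035 annotated genes with reads. R6/2 mice (strain B6CBA-Tg(HDexon1)62Gpb/3J) carry a transgene for exon 1 of mutant human huntingtin, the Huntington's disease gene, and NT mice are their controls without the transgene. Only male mice of 3 months of age were sequenced, and each of the 4 groups (cortex NT, cortex R6/2, striatum NT and striatum R6/2) held 4 samples. The transgene encodes only a fragment of the human protein, which limits the R6/2 mouse as a model of the full-length mutant gene. Counts came in 2 sets, summed here, for striatum NT 1 and 2 and striatum R6/2 2 and 3, and in 1 set for every other sample.

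Translation of most mRNAs begins when eIF4E binds the cap, the scaffold eIF4G joins it to eIF3 on the small ribosomal subunit, and the helicase eIF4A, helped by eIF4B and eIF4H, unwinds the leader. eIF2 carries the initiator tRNA, eIF1 and eIF1A help to select the start codon, and eIF5 and eIF5B take part in GTP hydrolysis and subunit joining. Phosphorylation of eIF2 by stress kinases slows its recycling by the exchange factor eIF2B and lowers protein synthesis, a switch that is much studied in neurodegeneration and memory.

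Cortical samples held 252885 to 808814 reads each, and striatal samples 317050 to 1496196. Members made up 0.823 to 1.08% of the reads assigned to genes, or 1801 to 11553 reads per sample. Reads were classed by the authors as complete matches to an annotated isoform, as incomplete splice matches (ISM, which hold only part of an annotated isoform's junctions), or as new combinations of known (NIC) or unknown (NNC) splice sites. Known, NIC and NNC reads are called complete reads here. Levels are given as CPM, gene reads scaled to the TMM-normalized depth of the sample (edgeR's CPM), and are compared only within a gene. The striatal samples of 2 sets held longer isoforms (a mean of 2142 to 2225 nt per read) and fewer ISM reads (10.9 to 12.5%) than those of 1 set (1620 to 1886 nt and 13.5 to 16%). The tissue labels matched their markers: the summed level of 9 genes of striatal projection neurons was 10100 to 13850 CPM in striatal NT and 1893 to 3272 CPM in striatal R6/2 samples, and 375 to 467 and 95.8 to 130 CPM in the cortex. In bulk tissue, fewer cells of a type and less RNA per cell cannot be told apart. Choroid plexus genes reached 9217 CPM in 1 striatal NT sample and at most 292.7 CPM in the striatal R6/2 samples.

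The member that differed most clearly between genotypes did so in splicing and not in level. Eif4h (ENSMUSG00000040731, chromosome 5, 134619721 to 134639490 of GRCm38, minus strand) encodes an RNA-binding cofactor that stimulates the eIF4A helicase. Nearly all of its complete reads came from a pair of annotated coding isoforms, Eif4h-001 (7 exons) and Eif4h-002 (6 exons). Eif4h-002 lacks coding exon 5, a cassette of 60 nt (20 codons) at chr5:134624441-134624500. Their listed lengths of 2726 and 2367 nt show that the annotated forms also differ outside this exon. Exon 5 is given in capitals with 30 bases of each neighboring exon, followed by the junction that reads without it span. These sequences show whether a read holds exon 5.
Eif4h-001, exon 5 included: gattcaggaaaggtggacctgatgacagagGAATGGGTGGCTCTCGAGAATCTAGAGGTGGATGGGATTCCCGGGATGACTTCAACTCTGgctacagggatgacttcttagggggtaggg
Eif4h-002, exon 5 skipped: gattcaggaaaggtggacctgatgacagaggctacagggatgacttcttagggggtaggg

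In the cortex, exon 5 was present in 59.2%, 64.3%, 61.9% and 62.2% of the Eif4h-001 and Eif4h-002 reads of NT mice 1 to 4. In R6/2 mice it was present in 71.1%, 74.5%, 74.2% and 74.6%. Every cortical R6/2 sample lay above every NT sample, and the mean rose from 61.9% ± 2.08 to 73.6% ± 1.69 (SD, n = 4 each), a difference of 11.7 points. Between 155 and 442 reads stood behind each cortical value, and the 95% Wilson interval of the sample with fewest reads ran from 54.1 to 69.2%. These intervals treat every read as independent and leave out the spread between samples. The cDNA was amplified and no molecular identifiers are described, so reads may be copies of 1 molecule and the intervals too narrow.

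**Figure D1:**
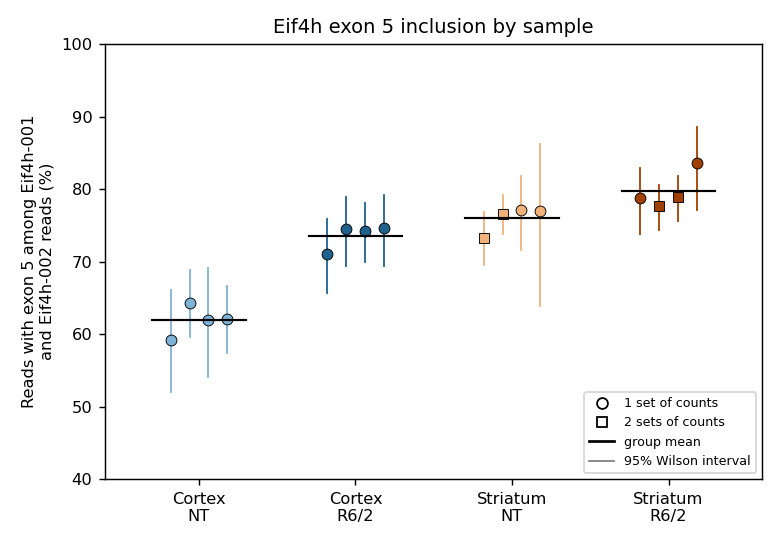
Share of Eif4h reads that include exon 5 (y axis, percent, starting at 40) in each sample of the 4 groups (x axis), with 95% Wilson intervals as vertical lines and group means as horizontal lines. Cortical NT samples lie between 59.2 and 64.3%, below all cortical R6/2 samples (71.1 to 74.6%) and all striatal samples (73.3 to 83.7%).

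In the striatum the share was higher in both genotypes. NT samples 1 to 4 had 73.3%, 76.6%, 77.1% and 76.9%, and R6/2 samples 1 to 4 had 78.7%, 77.7%, 78.9% and 83.7%. The groups again did not overlap, but the gap was narrow: the means were 76.0% ± 1.79 and 79.7% ± 2.67 (SD, n = 4 each), 3.74 points apart. Within the samples of 1 set the difference was 4.15 points and within those of 2 sets 3.32 points. Striatum exceeded cortex by 14.1 points in NT mice and by 6.15 points in R6/2 mice, without overlap in either genotype. Each of these 4 comparisons reached p = 0.029 in a two-sided exact permutation test, the smallest that 4 against 4 samples allow, and an adjusted p of 0.1 over the 56 isoform comparisons made this way.

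Across all genes, the share of the leading isoform among complete reads was tested with limma on log2 odds, a test added with the results in view. In the cortex, Eif4h was the only 1 of 22 members called at an adjusted p under 0.05, where 3.12% of 2112 genes were called. The odds of Eif4h-001 among all complete Eif4h reads rose by 0.72 on the log2 scale (SE 0.154, limma adjusted p = 0.0004). It was also the only member whose cortical groups did not overlap, against 6.2% of genes. In the striatum, 0 of 23 members were called (1 at an unadjusted p under 0.05, Eif3k), against 5.62% of 2064 genes. The striatal difference for Eif4h was 0.27 (SE 0.145, limma adjusted p = 0.38), although its groups did not overlap, as was so for 7.46% of genes. Between the regions in NT mice, Eif4h rose by 0.97 in the striatum (SE 0.205, limma adjusted p = 0.00046), and the difference in R6/2 mice was 0.51 (SE 0.199, limma adjusted p = 0.13). Of 24 members, 2 were called between regions in NT mice (Eif4h and Eif2s2) and 1 in R6/2 mice (Eif2s2), where 5.12% and 4.82% of 1679 genes were called. In NT mice 2 members (Eif4h and Eif4b) and in R6/2 mice 1 member (Eif4h) did not overlap, against 7.21% of genes in each. Without a term for the number of sets, 1 member was called in NT mice (Eif4h, 0.86) against 3.75% of genes, and 0 in R6/2 mice against 2.68%, with 2 members at an unadjusted p under 0.05. The genotype effect on Eif4h was not shown to differ between the regions, with a limma interaction of −0.46 (SE 0.25, adjusted p = 0.988). The interaction called 0 of 24 members (0 at an unadjusted p under 0.05), against 0.0596% of genes.

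The levels of the isoforms themselves were then compared. Eif4h-002 stood at 203, 316, 288 and 310 CPM in cortical NT samples 1 to 4 and at 161, 167, 158 and 178 CPM in R6/2 samples 1 to 4, without overlap (log2 ratio −0.75, exact permutation p = 0.029, adjusted p = 0.17 over 12 comparisons of isoform levels). Eif4h-001, the form with exon 5, had means of 460 ± 118 and 464 ± 53.4 CPM (SD, n = 4 each), with overlapping samples (exact permutation p = 0.97). In the striatum, Eif4h-002 had 129 ± 63.4 CPM in NT and 114 ± 44.0 CPM in R6/2 samples (SD, n = 4 each, exact permutation p = 0.71). The gene as a whole was not called between genotypes (log2 fold change −0.24 in the cortex and 0.08 in the striatum). Another test of isoform usage, edgeR's diffSpliceDGE, did not call Eif4h in the cortex (edgeR adjusted p = 1). Among the genes of striatal projection neurons, 2 of the 3 tested in the cortex (Penk and Ppp1r1b) fell in R6/2, and the 9 summed to 95.8 to 130 against 375 to 467 CPM. The 5 astrocyte genes, of which 0 were called, summed to 518 to 599 CPM in R6/2 and 695 to 1013 CPM in NT cortex. The part of these cell types in the Eif4h difference was not tested.

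Summed over all members, initiation factor reads amounted to 8568 to 9943 CPM in cortical NT, 9686 to 10340 in cortical R6/2, 8723 to 10070 in striatal NT and 9703 to 10560 in striatal R6/2 samples. The groups overlapped in both tissues. A total of 42 members passed the filter on low counts. In the cortex, edgeR's quasi-likelihood test called 0 of 42 between R6/2 and NT (5 at an unadjusted p under 0.05), where 3.68% of 6121 genes were called (0.539% higher and 3.14% lower), and DESeq2 called 0. The median log2 fold change of the members was 0.07, against 0.02 over all genes, with 27 above and 15 below 0. Members were also put into groups by role. The 5 genes whose symbols begin with Eif1 (Eif1, Eif1a, Eif1ad, Eif1ax and Eif1b) were put under start site selection and scanning, and this role was not checked for Eif1ad. They had a median of 0.29, with 4 above 0. They summed to 1209 to 1394 CPM in NT and 1483 to 1835 CPM in R6/2 cortex. Eif1 held means of 901 of 1335 CPM in NT and 1067 of 1612 CPM in R6/2 samples. Its samples overlapped between genotypes (805 to 974 and 953 to 1253 CPM), and how often sums of genes separate was not determined. The sum of this role group is given because its genotypes did not overlap. In the cortex the sums of every other role group overlapped, such as that of eIF3 (2433 to 2764 CPM in NT and 2687 to 2830 CPM in R6/2). Of 13 eIF3 subunits tested, 10 lay above 0, within −0.06 and 0.33. The 5 subunits of eIF2B, the exchange factor, lay between −0.27 and 0.13.

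**Figure D2:**
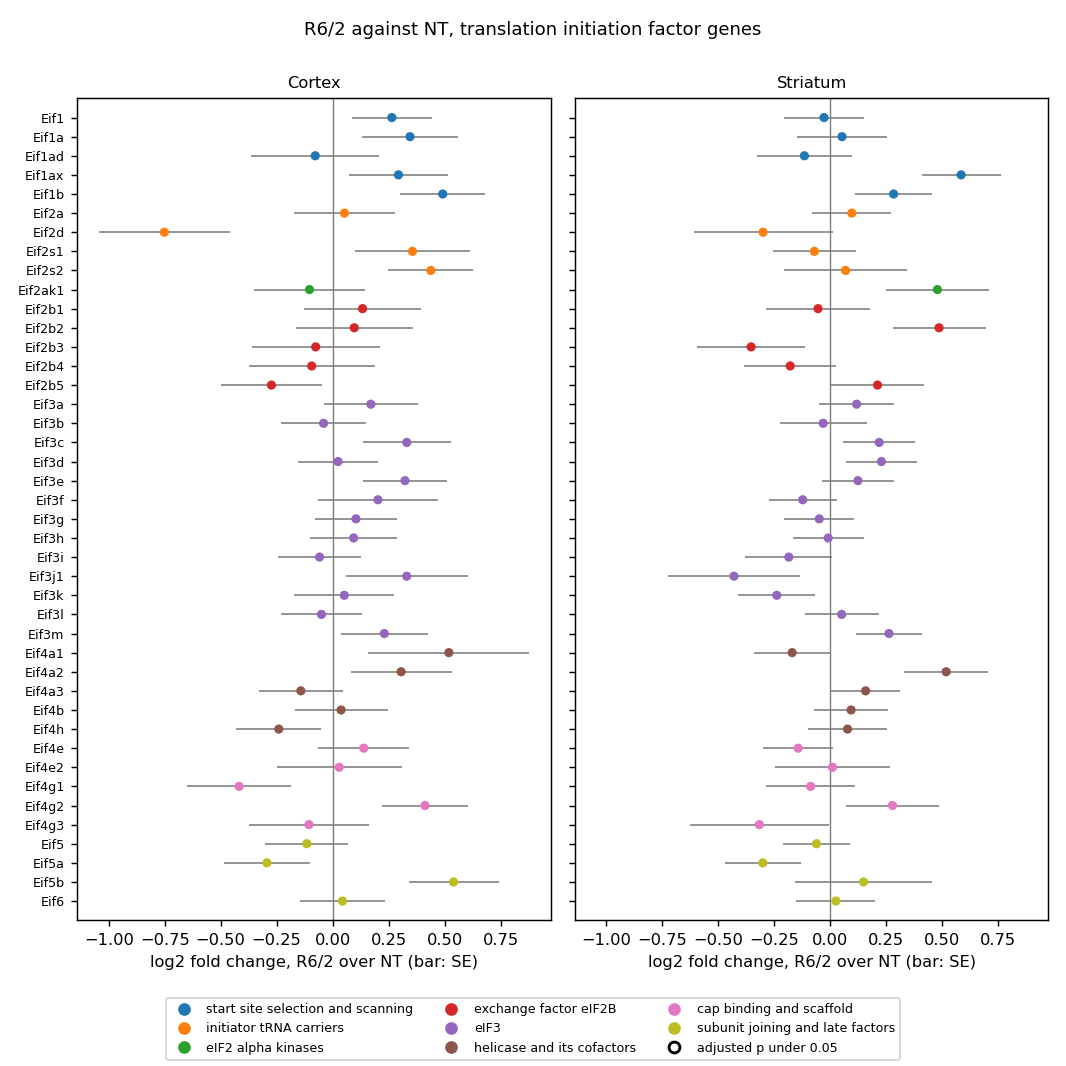
Log2 fold change of R6/2 over NT (x axis, bars show the SE) for the 42 tested members, colored by role, in the cortex and in the striatum. No member reached an adjusted p under 0.05 in either tissue, and values ran from −0.75 to 0.54 in the cortex and from −0.43 to 0.58 in the striatum.

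The cortical samples of R6/2 and NT did not overlap for 4 members that were higher in R6/2 (Eif1a, Eif2s2, Eif4g2 and Eif5b) and 1 that was lower (Eif2d), where 3.61% and 6.44% of all genes tested separated in these directions. Eif5b (ENSMUSG00000026083), which encodes the GTPase of subunit joining, had 135, 146, 78.0 and 106 CPM in NT samples 1 to 4 and 178, 200, 159 and 152 CPM in R6/2 samples 1 to 4. All R6/2 samples were higher, with a log2 fold change of 0.54 (SE 0.201, edgeR adjusted p = 0.14). Eif4g2, which encodes DAP5, an eIF4G relative without an eIF4E-binding site, had 92.0, 140, 107 and 124 CPM in NT and 152, 153, 155 and 159 CPM in R6/2 samples. Its R6/2 values were close together and its log2 fold change was 0.41 (SE 0.191, edgeR adjusted p = 0.25).

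Eif2s2, the gene of the beta subunit of eIF2, stood at 154, 108, 122 and 126 CPM in cortical NT and at 196, 163, 163 and 159 CPM in cortical R6/2 samples (log2 fold change 0.44, SE 0.189, edgeR adjusted p = 0.22). Eif1a, one of the eIF1A genes, had 59.5 to 92.6 CPM in NT and 93.4 to 120 CPM in R6/2 samples, so the groups met almost without a gap (log2 fold change 0.35, edgeR adjusted p = 0.42). Eif2d, a factor that can bring tRNA to the ribosome without GTP, was the exception in direction. It had 35.2, 53.8, 48.8 and 34.8 CPM in NT and 16.5, 24.5, 30.5 and 27.7 CPM in R6/2 samples, a log2 fold change of −0.75 (SE 0.293, edgeR adjusted p = 0.17). These values rest on few reads, 66 in NT and 55 in R6/2 cortex over 4 samples each. The other members with small p values overlapped: Eif1b, a paralog of Eif1, had 168 to 258 CPM in NT and 235 to 311 CPM in R6/2 (log2 fold change 0.49, edgeR adjusted p = 0.16), and Eif4g1, the main eIF4G scaffold, had 68.3 to 108 and 51.2 to 79.5 CPM (−0.42, edgeR adjusted p = 0.35).

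**Figure D3:**
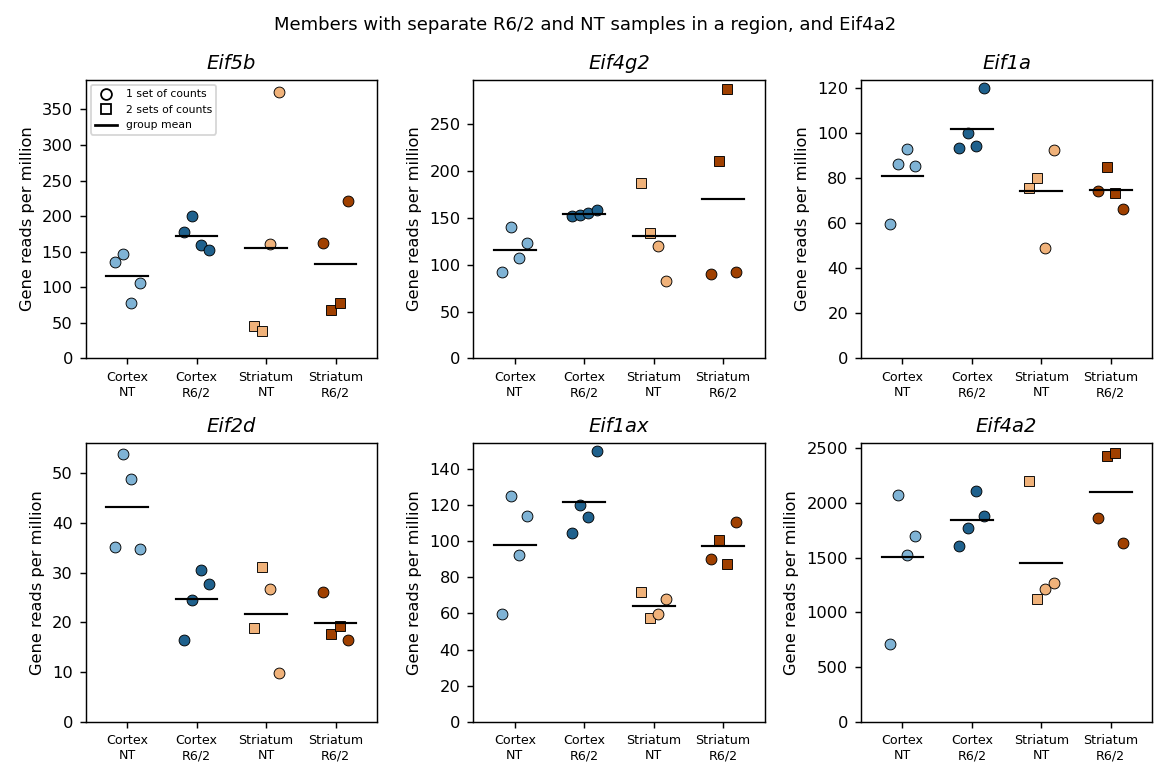
Gene level (CPM, y axes from 0) in each sample by group for 6 members, with circles for samples of 1 set, squares for samples of 2 sets and lines for group means. Cortical R6/2 and NT samples separate for Eif5b, Eif4g2, Eif1a and Eif2d, and striatal ones for Eif1ax, and Eif4a2 overlaps in both tissues.

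In the striatum, edgeR called 0 of 42 members (3 at an unadjusted p under 0.05), where 4.86% of 7658 genes were called (0.588% higher and 4.27% lower), and DESeq2 called 0. The median log2 fold change was 0.02, against −0.002 over all genes. The only member with separate groups was Eif1ax (ENSMUSG00000067194, X chromosome), an eIF1A gene, which was higher in R6/2, a separation in this direction shared by 1.82% of genes tested. No member separated in the lower direction, as 4.28% of genes did. Eif1ax had 71.9, 57.6, 59.8 and 68.2 CPM in NT samples 1 to 4 and 90.1, 100.5, 87.4 and 111 CPM in R6/2 samples 1 to 4. Its log2 fold change was 0.58 (SE 0.177, edgeR adjusted p = 0.0722), with values of 0.65 within the samples of 1 set and 0.54 within those of 2. In the cortex the same gene overlapped between genotypes (59.5 to 125 CPM in NT and 104 to 150 CPM in R6/2), and its genotype effect did not differ between the regions beyond the spread (interaction 0.31, edgeR adjusted p = 0.93).

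Eif4a2, the neuronally abundant paralog of the eIF4A helicase, had 2202, 1118, 1212 and 1266 CPM in striatal NT and 1865, 2432, 2459 and 1629 CPM in striatal R6/2 samples. A single NT sample (NT 1) lay among the R6/2 values, and the log2 fold change was 0.52 (SE 0.187, edgeR adjusted p = 0.15). Over the 8 fits that each left out 1 striatal sample, the log2 fold change of Eif4a2 ran from 0.37 to 0.75 (edgeR adjusted p from 0.0267 to 0.333). It was called only without striatal NT replicate 1, the NT sample nearest to R6/2, where it was 0.75 (edgeR adjusted p = 0.0267). Eif2b2, the beta subunit of eIF2B, had 46.7, 54.4, 31.5 and 29.2 CPM in NT and 52.3, 60.1, 66.1 and 58.9 CPM in R6/2 samples (0.49, edgeR adjusted p = 0.23). Eif2ak1, the heme-regulated eIF2 kinase, had 24.4 to 46.7 and 28.3 to 73.2 CPM (0.48, edgeR adjusted p = 0.29). Eif5a, a factor that relieves stalled ribosomes, had 391 to 683 and 368 to 486 CPM (−0.30, edgeR adjusted p = 0.39), and Eif3m, an eIF3 subunit, 130 to 220 and 177 to 250 CPM (0.26, edgeR adjusted p = 0.40). The interaction of region and genotype called 0 of 42 members in edgeR (0 at an unadjusted p under 0.05), against 0.0406% of 7390 genes (0.0271% higher and 0.0135% lower), and 0 in DESeq2. Its smallest p values belonged to Eif2ak1 (0.61, edgeR adjusted p = 0.86), Eif3j1 (−0.73), Eif2b5 (0.51), Eif4a1 (−0.67), Eif4a3 (0.33) and Eif4h (0.35).

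Between the regions, more members were called, and the number depended on how the sets of counts were treated. Every cortical sample had 1 set, so in the fit with a term for sets the contrast rested on the striatal samples of 1 set. In NT mice that fit called 9 of 42 members with edgeR, 5 higher in the striatum (Eif1, Eif2s2, Eif3f, Eif3k and Eif5b) and 4 lower (Eif2b5, Eif3d, Eif4g3 and Eif4h), where 33.6% of 7390 genes were called (16% higher and 17.6% lower). In R6/2 mice it called 7 of 42, 4 higher (Eif1, Eif2s2, Eif3f and Eif3k) and 3 lower (Eif3d, Eif4g3 and Eif4h), where 27.4% of genes were called (13.1% higher and 14.3% lower). Both shares of members, 21.4% and 16.7%, were below these backgrounds. Without the term, 2 members were called in each genotype, Eif3f and Eif4g3, where 14.6% and 11.5% of genes were called. The oligodendrocyte genes summed to 11060 to 27160 CPM in the striatum and 2813 to 6290 CPM in the cortex, with 4 of 5 called higher in NT and 5 of 5 in R6/2 striatum, and their part in the region differences was not tested.

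Eif3f (ENSMUSG00000031029, chromosome 7, 108934417 to 108942951) encodes an eIF3 subunit of the MPN domain family. In NT mice it had 260, 241, 58.5 and 209 CPM in the cortex and 451, 537, 420 and 467 CPM in the striatum. In R6/2 mice it had 203, 216, 271 and 217 CPM in the cortex and 436, 452, 435 and 413 CPM in the striatum. All striatal samples exceeded all cortical ones, whatever the genotype or number of sets, and the log2 fold change was 1.19 in NT (SE 0.262, edgeR adjusted p = 0.00079) and 0.88 in R6/2 mice (SE 0.254, edgeR adjusted p = 0.01). It was the only member whose striatal samples lay entirely above the cortical ones in each genotype, where 7.27% of genes in NT and 8.7% in R6/2 mice did so. Nearly all its complete reads (99.3 to 99.7% per group) came from Eif3f-001, an isoform of 8 exons.

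Eif4g3 (ENSMUSG00000028760, chromosome 4), the eIF4GII scaffold, was lower in the striatum. It had 106, 47.4, 29.2 and 67.7 CPM in cortical NT, 51.3, 53.0, 69.2 and 64.5 CPM in cortical R6/2, 30.3, 33.4, 18.9 and 19.5 CPM in striatal NT and 18.9, 14.5, 25.4 and 33.0 CPM in striatal R6/2 samples. The R6/2 groups were separate and the NT groups overlapped, with log2 fold changes of −1.55 (SE 0.348, edgeR adjusted p = 0.0011) and −1.36 (SE 0.373, edgeR adjusted p = 0.0051). The call in NT mice was lost without striatal NT replicate 3 or cortical NT replicate 1, when the log2 fold change was as low in size as −0.82. Some of its cortical reads were ISM reads of a single exon, 25 in NT and 42 in R6/2 cortex against 0 and 4 in the striatum. This split was made after the values were seen, so taking out these mostly cortical reads lowers the region difference by itself. The remaining reads had 47.1 ± 29.6 CPM in cortical and 25.5 ± 7.43 CPM in striatal NT samples (SD, n = 4 each). The log2 ratio was −0.88 (exact permutation p = 0.26, adjusted p = 0.62 over the 12 comparisons of isoform levels). In R6/2 samples they had 40.3 ± 10.1 and 21.5 ± 7.13 CPM (SD, n = 4 each). The log2 ratio was −0.91 (exact permutation p = 0.057, adjusted p = 0.17).

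**Figure D4:**
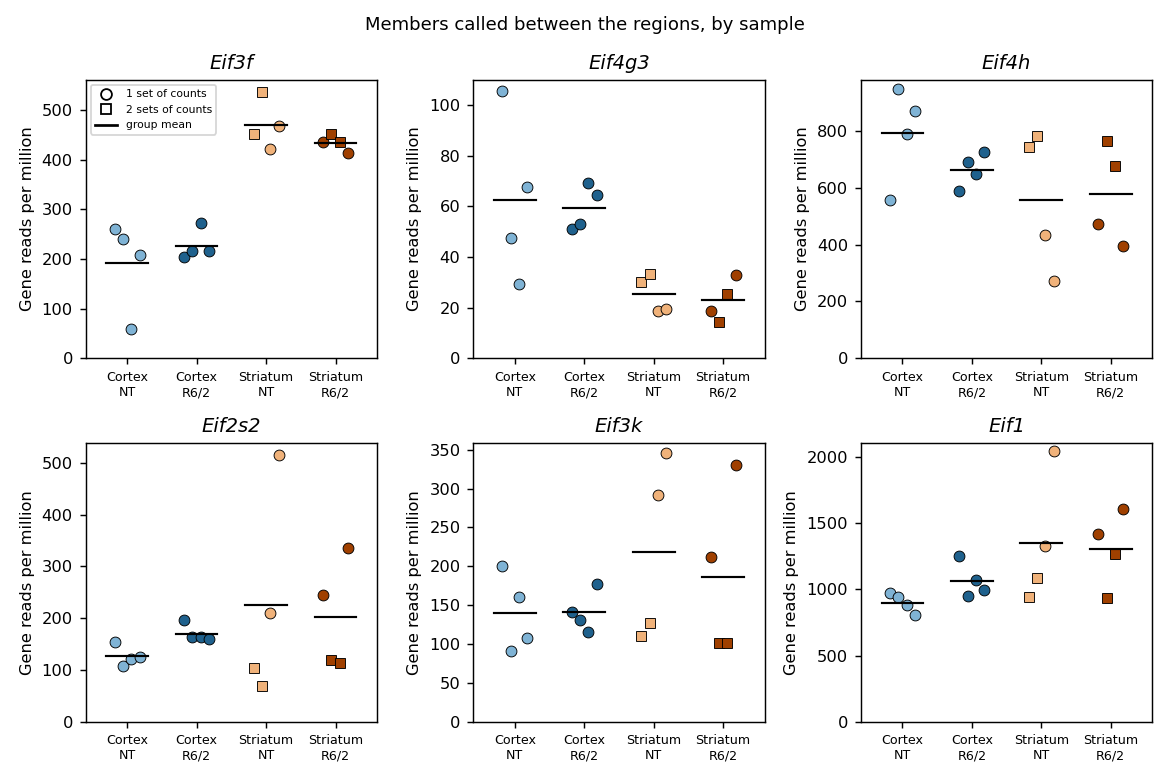
Gene level (CPM, y axes from 0) in each sample by group for 6 members called between regions, with circles for samples of 1 set, squares for samples of 2 sets and lines for group means. Striatal Eif3f lies above all cortical samples for both kinds of sample, whereas for Eif2s2 and Eif3k only the striatal samples of 1 set reach above the cortex.

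The other called members followed the number of sets within the striatum. Eif2s2 had 211 and 516 CPM in the NT samples of 1 set and 103 and 68.4 CPM in those of 2 sets, beside 108 to 154 CPM in the cortex, and in R6/2 mice 244 and 335 against 119 and 113 CPM, beside 159 to 196 CPM. Eif3k, an eIF3 subunit outside its core, had 291 and 346 against 110 and 127 CPM in NT and 212 and 330 against 102 and 102 CPM in R6/2 samples. Eif1, the start codon fidelity factor, had 1327 and 2045 against 943 and 1085 CPM in NT, with 805 to 974 CPM in the cortex. For Eif2s2 and Eif3k, striatal samples of 2 sets stood within or below the cortical range, and Eif1 exceeded it in 1 of the NT samples of 2 sets. Eif4h and Eif3d, the eIF3 subunit that can contact the cap, were low in the samples of 1 set. Eif4h had 433 and 273 CPM in NT samples of 1 set and 744 and 780 CPM in those of 2 sets, beside 557 to 945 CPM in the cortex. Eif3d had 99.2 and 102 against 175 and 151 CPM, beside 176 to 205 CPM in the cortex.

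Leaving out single samples also moved these calls. Eif5b was higher in the striatum by 0.80 in NT mice (SE 0.283, edgeR adjusted p = 0.0312), with 375 CPM in NT 4, 161 in NT 3 and 38.9 and 45.4 in the others. The difference was 0.24 without striatal NT replicate 4, and the call was lost there and without cortical NT replicate 3 or 4. Eif2b5, the catalytic subunit of eIF2B, was lower by 0.66 on the log2 scale (edgeR adjusted p = 0.047) and was no longer called in 13 of 16 fits that each left out 1 sample. On levels alone, 3 members lay entirely lower in the striatum of NT mice (Eif2d, Eif3d and Eif5) and 6 in R6/2 mice (Eif1a, Eif3e, Eif3g, Eif3i, Eif4g3 and Eif5), where 8.84% and 12.4% of genes did. Eif5 had 385 to 506 CPM in the cortex and 277 to 370 CPM in the striatum of NT mice, and 346 to 454 against 259 to 318 CPM in R6/2 mice.

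Most members were read as 1 main isoform. Of 48 members with at least 20 complete reads, the leading isoform held at least 90% in 25, from 50 to under 90% in 16 and under 50% in 7. Eif1-001 (97.96 to 98.9% per group) and Eif1b-001 (97.7 to 98.9%) were nearly alone in their genes. Eif4a2 had a stable second coding isoform. Eif4a2-014 made up 20.3% ± 3.13, 22.4% ± 1.65, 21.7% ± 3.88 and 23.0% ± 0.936 of the reads of Eif4a2-001 and Eif4a2-014 in cortical NT, cortical R6/2, striatal NT and striatal R6/2 samples (SD, n = 4 each), with no exact permutation p below 0.26. Eif2b4, a subunit of eIF2B, also split its reads between a pair of coding isoforms, with 57.1 to 76.9% in Eif2b4-001 and 15.4 to 26.8% in Eif2b4-002. Eif4e2, a cap-binding protein that represses translation, was spread over several isoforms, and its leading isoform Eif4e2-006 held 18.8 to 32.5% of complete reads per group.

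Usage of the isoforms of a gene, tested with edgeR's diffSpliceDGE, called 0 of 18 members in the cortex between R6/2 and NT (1 at an unadjusted p under 0.05), where 0.36% of 3058 genes were called. It called 0 of 21 in the striatum (2 unadjusted), where 0.451% of 4437 genes were called, and 0 of 17 between the regions of NT mice (3 unadjusted), where 0.162% of 3694 were. The gene-level F test called 0 members in each. The smallest cortical edgeR p values were those of Eif1 (0.0471), Eif4h (0.0945) and Eif4a2 (0.108). In Eif1 the 3-exon isoform Eif1-003 made up 1.63% ± 0.817 of complete reads in NT and 0.673% ± 0.541 in R6/2 cortex. In the striatum the smallest edgeR p values were those of Eif5a (0.0204), Eif3k (0.0434) and Eif1 (0.0616). Eif5a-002 and Eif5a-006 together made up 5.61% ± 1.31 of complete Eif5a reads in striatal NT and 2.74% ± 1.07 in R6/2 samples, without overlap. These isoforms had the smallest usage p values of the gene in the same samples, so their pooled share is a description. It was among the 56 isoform comparisons by permutation, but a p value from the samples used for the choice cannot serve as a test. How often shares pooled in this way separate was not determined. Eif3k-001 made up 92.7% ± 1.19 and 88.1% ± 4.67 in the same groups (SD, n = 4 each, exact permutation p = 0.14), and 91.8% ± 3.02 and 84.8% ± 8.68 in the cortex (exact permutation p = 0.23).

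Between the regions of NT mice the smallest edgeR p values for usage were those of Eif1 (0.00049, adjusted p = 0.13), Eif2s2 (0.0104) and Eif3c (0.0284). The 2-exon isoform Eif1-005 had 0 of 1386 complete Eif1 reads in cortical NT and 22 of 3390 in striatal NT samples. Eif2s2 (chromosome 2, 154871410 to 154892935, minus strand) was unusual in that its leading complete isoform, over all samples pooled, was a transcript that GENCODE lists as a retained intron. Eif2s2-003 has 2 exons. Its last exon runs from exon 2 through both following introns, with exon 3 between them, and ends within exon 4. Such reads lack the rest of exon 4 and exons 5 to 9 of Eif2s2-001. The end of exon 2 is printed in lower case with the first 30 bases of the retained intron in capitals (chr2:154888153-154888212), beside the spliced junction of the coding isoform Eif2s2-001, to show where the 2 forms part.
Eif2s2-003, exon 2 into intron 2: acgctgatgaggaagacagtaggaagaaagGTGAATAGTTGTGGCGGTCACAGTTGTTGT
Eif2s2-001, exon 2 joined to exon 3: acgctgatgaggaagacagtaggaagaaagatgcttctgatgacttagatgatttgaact

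Eif2s2-003 made up 42.2% ± 4.60 of complete Eif2s2 reads in cortical NT, 38.4% ± 11.3 in cortical R6/2, 50.4% ± 13.1 in striatal NT and 45.9% ± 20.9 in striatal R6/2 samples (SD, n = 4 each). The striatal spread followed the number of sets: 58.8 and 63.3% in NT samples of 1 set against 44.6 and 34.8% in those of 2 sets, and 57.7 and 69.2% against 31.4 and 25.3% in R6/2 samples. With the term for sets, limma called its share higher in the striatum in NT (log2 odds 1.26, SE 0.337, adjusted p = 0.0108) and R6/2 mice (1.35, SE 0.277, adjusted p = 0.00017), and without the term in neither (adjusted p = 0.82 and 0.76). Eif2s2-002, the other isoform listed with a retained intron, held 26.3 to 42.7% of the complete reads of a group, and the coding isoform Eif2s2-001 of 9 exons 17.8 to 22.5%. Of all Eif2s2 reads, Eif2s2-001 made up 31.7 and 23.9% in striatal NT samples of 2 sets against 4.48 and 6.60% in those of 1 set. In R6/2 samples it made up 25.2 and 37.8% against 4.76 and 2.82%. In striatal R6/2 2 and 3, Eif2s2-001 had more reads than Eif2s2-003 (29 against 27 and 42 against 24).

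Several of the longer members were rarely read through in full. Among 42 members with at least 100 reads, ISM reads made up a median of 11.9%, under 10% in 19 and over 50% in 7. The highest shares were those of Eif5b (98.9%), Eif3a, the large eIF3 scaffold subunit (97.0%), Eif4g1 (88.5%), Eif4g3 (81.7%), Eif5 (79.4%), Eif3j1 (73.7%) and Eif3c (73.2%). For these genes a level counts mostly partial reads. Between genotypes, limma called the ISM share of 0 of 33 members in the cortex (1 at an unadjusted p under 0.05), where 0 of 2772 genes were called, and of 0 of 32 in the striatum (1 unadjusted), where 0.102% of genes were. Groups did not overlap for 1 member in the cortex (Eif4b, 3.57% of genes) and 0 in the striatum (1.32% of genes).

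Between the regions, the ISM share called 1 of 32 members in NT mice, Eif3b, an eIF3 core subunit (limma log2 odds 1.58, adjusted p = 0.0333), where 5.38% of genes were called. In R6/2 mice it called 2, Eif3c (−1.38, limma adjusted p = 0.0307) and Eif5b (2.77, limma adjusted p = 0.0446), where 6.73% were. Without the term for sets it called 0 in NT (5 at an unadjusted p under 0.05, against 0.0421% of genes) and 2 in R6/2 mice, Eif3c (−2.47, limma adjusted p = 0.0229) and Eif5 (−1.84, limma adjusted p = 0.0495), against 2.61%. The regions did not overlap for 2 members in NT (Eif2s2 and Eif4b, where 4.46% of genes did not) and for 5 in R6/2 mice (Eif1ax, Eif2s2, Eif3c, Eif3e and Eif4b, where 7.82% did not).

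Eif5, the activator of GTP hydrolysis by eIF2, was read mostly as an ISM form holding its first 7 exons. That form made up 69.7% ± 6.44 of its reads in cortical NT, 67.1% ± 3.40 in cortical R6/2, 53.6% ± 14.1 in striatal NT and 45.5% ± 9.10 in striatal R6/2 samples (SD, n = 4 each). The complete Eif5-202 (12 exons) made up 0.535 to 9.57% in cortical NT and 6.05 to 8.82% in cortical R6/2 samples. In the striatum its share was 31.4 to 35.9% in the samples of 2 sets and 6.58 to 15.1% in those of 1 set. Eif3c-001 (21 exons), the complete form of an eIF3 core subunit, made up 5.32 to 12.8% in the cortex of NT and 6.30 to 8.33% in that of R6/2 mice, against 30.1 to 51.2% in striatal samples of 2 sets and 12.9 to 26.3% in those of 1 set. The striatal samples of 2 sets had a mean isoform length of 2142 to 2225 nt. Those of 1 set had 1620 to 1886 nt, and cortical samples 1851 to 2101 nt. The length of the reads themselves was not measured, and the part of isoform length in these shares was not tested.

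**Figure D5:**
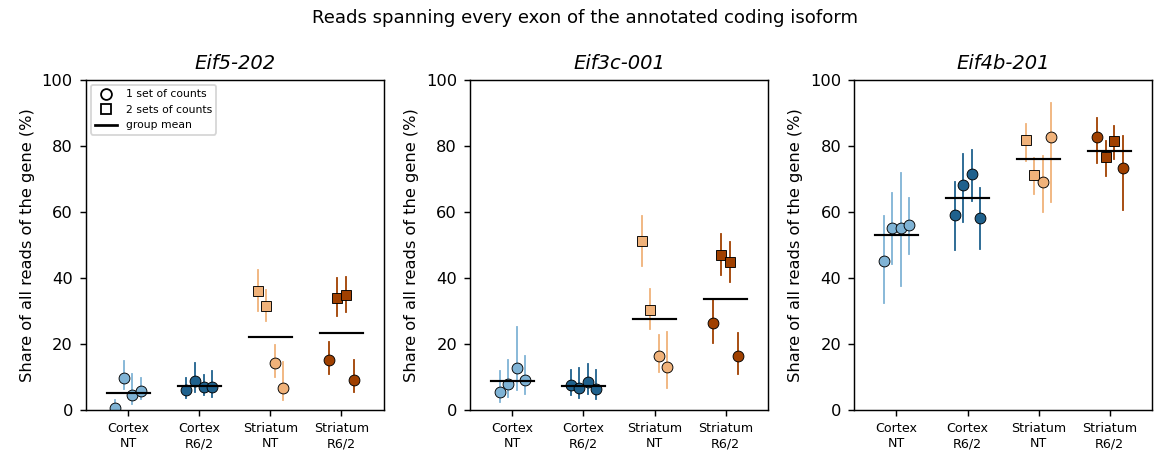
Share of all reads of a gene that match its complete coding isoform (y axis, percent) in each sample by group, for Eif5-202, Eif3c-001 and Eif4b-201, with 95% Wilson intervals, circles for samples of 1 set, squares for samples of 2 sets and lines for group means. Within the striatum, samples of 2 sets are highest for Eif5-202 and Eif3c-001, and Eif4b-201 lies between 69.1 and 82.6% in all striatal samples.

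Eif4b, whose product stimulates eIF4A as that of Eif4h does, is described because its cortical groups did not overlap in the share of its complete isoform, so that its values are given as a description. Eif4b-201 (15 exons) made up 45.1%, 55.1%, 55.2% and 55.9% of Eif4b reads in cortical NT and 59.0%, 68.0%, 71.5% and 58.2% in cortical R6/2 samples, without overlap. The means were 11.4 points apart, and the reads behind each value numbered 29 to 130. The ISM share of Eif4b, the counterpart of this measure, was not called by limma (−0.69 on the log2 odds scale, adjusted p = 0.75). In the striatum the means were 76.1% ± 7.0 in NT and 78.5% ± 4.40 in R6/2 samples (SD, n = 4 each, exact permutation p = 0.63).

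The other 9 members had too few reads for the tests. They were the eIF2 kinases Eif2ak2, Eif2ak3 and Eif2ak4, the eIF4E-binding repressors Eif4ebp1 and Eif4ebp2, the eIF4E transporter gene Eif4enif1, the cap-binding Eif4e3, Eif3j2 and Eif5a2. Eif2ak3, the gene of the endoplasmic reticulum kinase PERK, had 11 and 14 reads over the 4 samples in cortical NT and R6/2 and 9 and 14 in the striatum. Eif2ak2, the kinase activated by double-stranded RNA, had 12 and 30 in the cortex and 7 and 30 in the striatum. These reads are not scaled to depth, and in CPM the genotypes overlapped for both genes in each region. Eif2ak2 had 1.93 to 24.4 CPM in NT and 11.5 to 18.3 CPM in R6/2 cortex. In the striatum it had 0 to 4.72 and 4.36 to 17.3 CPM. Summed, the 3 genes of eIF4E-binding proteins stood at 9.75 to 16.2 CPM in cortical NT, 10.2 to 27.7 CPM in cortical R6/2, 17.3 to 38.95 CPM in striatal NT and 8.29 to 11.8 CPM in striatal R6/2 samples. The cortical groups overlapped, with the higher mean in R6/2, and the striatal groups did not, with the lower mean in R6/2. How often sums of such rarely read genes separate was not determined, so the striatal gap is a description. Of the role groups, only this one separated the genotypes by its sum in the striatum, and it is given for that reason. The striatal sums rest on few reads of each gene, between 11 and 34 in NT and between 2 and 20 in R6/2 samples, and no test was made. Eif3j2 is a gene of a single exon, and reads of it and of the related Eif3j1 may not have been told apart with certainty.

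Of the other genes of the pathway, 50 were listed: the integrated stress response, regulation of cap binding, poly(A)-binding proteins, ribosome release factors, the enzymes that modify eIF5A, and elongation and termination factors. In the cortex, 1 of 33 tested was called by edgeR, where 3.68% of all genes were called. It was Eef1a1, the gene of the elongation factor that delivers tRNA, which was higher in R6/2 (log2 fold change 0.71, SE 0.201, adjusted p = 0.0432). The median over the list was 0.12, against 0.02 over all genes. Atf4, the transcription factor whose translation rises when eIF2 is phosphorylated, had a log2 fold change of 0.53 (edgeR adjusted p = 0.19) and Pabpc1, the cytoplasmic poly(A)-binding protein, 0.49 (edgeR adjusted p = 0.18). In the striatum 0 of 39 were called, against 4.86% of all genes, with a median of 0.09. Between regions, 17 of 40 were called in NT mice, 5 higher and 12 lower in the striatum, where 33.6% of all genes were called. In R6/2 mice 10 of 40 were called, 3 higher and 7 lower, where 27.4% were. Without the term for sets, no higher call was left, and 12 and 6 were lower, against 14.6% and 11.5% of all genes called. Atf4 was lower in the striatum with the term (log2 fold change −0.79 in NT and −0.98 in R6/2, edgeR adjusted p = 0.0133 and 0.0013) and was called lower in both genotypes without it. With the term, 3 of 8 integrated stress response genes were called lower in NT (Atf4, Gcn1l1 and Sesn2) and 2 in R6/2 mice (Atf4 and Gcn1l1). Ddit3 went the other way, called higher in NT (0.89, edgeR adjusted p = 0.0212) and not called in R6/2 mice (0.44, edgeR adjusted p = 0.23).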

How the data were processed

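Left cortex and striatum RNA was digested with a 5′-phosphate-dependent exonuclease, copied by template switching and sequenced on a PacBio Sequel II. The authors made consensus reads, kept those with a poly(A) tail and aligned them to mm10 with minimap2 2.17-r941. TranscriptClean was run on the alignments, and TALON gave each read its isoform. The authors deposited unfiltered raw read counts for 815498 isoforms in 20 files. What the 2 sets of counts of 4 striatal samples stand for was not given in the sources used here, so these sets were summed and their number was a term in the striatal and region fits.

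Known, ISM, NIC and NNC reads were summed per gene. Genes passing filterByExpr were fitted with edgeR 4.0.16 (TMM, quasi-likelihood test, Benjamini-Hochberg adjustment over all genes) in R 4.3.3, by region for genotype and over all 16 samples for region and interaction. Isoform usage was tested with diffSpliceDGE (Known, NIC and NNC isoforms of at least 10 reads), and shares with limma 3.58.1 on log2 odds (0.5 added to both counts) over genes with at least 10 reads in every sample. DESeq2 1.42.0 was an alternative. Single shares and isoform levels were compared by two-sided exact permutation tests over the 70 arrangements of 4 against 4 samples. Simulated data were used to test the level fits for genotype and for region in NT mice. They also covered the leading isoform shares by genotype and cortical isoform usage. The interaction, the other region fits, the other usage tests, the ISM shares, DESeq2 and the permutation tests were not simulated. Positions and isoforms are those of GENCODE on GRCm38. Total reads per sample limit the precision. The p-values of the fits set a difference against the spread between these samples, and those of the permutation tests place it among the 70 arrangements.

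Members and pathway lists were chosen with earlier results of these data known. Named in each comparison were members at an adjusted p under 0.05, up to 12, filled up to 6 by unadjusted p (for usage, to 3), isoforms of at least 10% in a group, and, chosen after their values were seen, members whose groups did not overlap, Eif4b, the members with high ISM shares, and rarer isoforms of the genes named for usage (Eif1-003, Eif1-005, Eif5a-002 and Eif5a-006). Alternatives were other normalizations, filters, isoform classes, tools, treatment of sets, a replicate block and leaving out each sample.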

Additional observations from a re-analysis of the deposited data

Results flagged for a closer look

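In groups of 4 samples, 1 sample stood far from the other 3 in 8 of 144 groups tested, by Dixon's criterion for its gap to the nearest sample. Chance gives about 1 in 20 such groups. The cause was not tested for any of them.

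Eif2b2 had 78.43 CPM in cortical NT 1, with 39.0 to 40.91 CPM in the other cortical NT samples. Eif2s2 had 195.9 CPM in cortical R6/2 1, with 159.1 to 163.4 CPM in the others. Eif3j1 had 23.84 CPM in striatal R6/2 2, with 42.16 to 44.79 CPM in the others. Eif4a2 had 2202 CPM in striatal NT 1, with 1118 to 1266 CPM in the others. The Eif4b-201 share of Eif4b reads was 45.1% in cortical NT 1, with 55.13 to 55.91% in the others. The share of 1-exon ISM reads in Eif4g3 was 0.0% in striatal R6/2 2, with 7.143 to 8.0% in the others, which rest on 1 or 2 such reads each. Inclusion of Eif4h exon 5 was 71.05% in cortical R6/2 1, with 74.21 to 74.59% in the others, and 73.33% in striatal NT 1, with 76.56 to 77.13% in the others.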

How the results depend on the processing

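The cortical and interaction comparisons of levels called 0 members under every alternative run. In the striatum, levels called 0 between genotypes but 1 without the filter (Eif4a2, 0.61, edgeR adjusted p = 0.0399), 1 with the Genomic class (Eif1ax, 0.65, edgeR adjusted p = 0.0279), and 0 to 1 when each sample was left out (1 without striatal NT replicate 1, Eif4a2). Between regions, the 9 members called in NT and 7 in R6/2 mice became 2 and 2 without the term for sets, and 2 and 2 with the first set only. Leaving out each sample gave 7 to 11 in NT and 4 to 8 in R6/2 mice (4 without striatal R6/2 replicate 4). Isoform usage between NT regions called 2 with ISM isoforms (Eif1 and Eif3b).

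For the share of the leading isoform, chosen with its alternatives after seeing the data, Eif4h in the cortex stayed called in every alternative run (0.686 to 0.784 when each sample was left out). The 2 calls between NT regions became 1 without the term for sets, 1 with the first set only, and 1 to 2 when each sample was left out (1 without cortical NT replicate 2). The 1 call in R6/2 mice became 2 with a common spread, 0 without the term, 0 with the first set only, and 1 to 2 when each sample was left out (2 without striatal R6/2 replicate 1).

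The labels do not say that same-numbered cortex and striatum samples came from 1 mouse, and the correlations did not settle the pairing. Between regions, same-numbered samples correlated at −0.23, 0.224, 0.116 and −0.171 for NT 1 to 4 and at 0.399, 0.189, 0.376 and −0.04 for R6/2 1 to 4, and numbers 2 and 3 of NT and 1 to 3 of R6/2 correlated best with their own number. Between striatal genotypes the values ran from −0.571 to 0.618. With a replicate block, 7 members were called between regions in NT mice, without Eif2b5 (edgeR adjusted p = 0.136) and Eif4g3 (0.0669), and 5 in R6/2 mice, without Eif1 (0.0894) and Eif3d (0.112). The block gave 0 calls between genotypes, in the interaction and for usage. With 4 samples a group and members such as Eif2d at 55 to 74 reads a group, small differences were not detectable at this depth.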
